A study of Mus musculus with 24 samples.

Results

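Accessible chromatin of Daxx-deficient long-term haematopoietic stem cells (LT-HSCs), taken 3 days post induction of Cre (d.p.i.), was compared with that of Daxx-deficient KLS cells, taken 3 weeks post induction (w.p.i.). KLS cells are the Lin- fraction that carries both c-Kit and Sca-1. Members were the libraries titled Daxx F/F LT.HSC 3dpi and Daxx F/F KLS 3wpi without the Pu.1 F/F allele, 3 of each, which make 6 of the 24 libraries of the series. Open DNA was mapped by ATAC-seq, which uses a transposase to cut and tag accessible sites. The authors deposited 1 pooled list of reproducible peaks per group, which held 44326 distinct regions for Daxx-KO LT-HSCs and 44694 for Daxx-KO KLS cells. Because each group has a single list, the comparison of both populations has no spread between libraries and no test. Every count, share and rank given below describes these lists.

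Both Daxx-KO groups were labelled Daxx F/F Cre +/- on C57BL/6, from bone marrow, so that both Daxx alleles were floxed and deleted by an inducible Cre. The corresponding Daxx-WT groups, Daxx +/+ Cre +/-, had 2 libraries per population and share no library with the Daxx-KO groups. Their lists held 36949 regions for LT-HSCs and 33325 for KLS cells. Mice were young animals of both sexes. Per the study's methods, LT-HSCs at 3 d.p.i. came from Rosa26CreERT2 mice given tamoxifen, in which Cre is driven by a promoter active in most tissues. KLS cells at 3 w.p.i. were elsewhere in the study taken from Mx1Cre mice given pI:pC, an agent that itself raises interferon, and the Cre driver of the KLS libraries used here is not given in the labels. LT-HSCs were sorted as a Flk2- CD48- CD150+ subset of KLS cells, and from fewer cells per library. Population, time after induction, cell number and possibly Cre driver and inducing agent therefore differ together between the lists and cannot be told apart. Population, time and cell number differ in the same way between the Daxx-WT lists, and Cre driver and inducing agent possibly do too. As in any bulk library, fewer cells of a type and lower accessibility per cell cannot be told apart. Further lists without a time label, 1 each for Daxx-KO and Daxx-WT LT-HSCs, CMPs and GMPs (common myeloid and granulocyte-monocyte progenitors), came from 2 other libraries each. The study's methods describe duplicate ATAC-seq of these 3 populations at 3 w.p.i. from Rosa26CreERT2 mice given tamoxifen, with another tagmentation protocol. Their time would then be that of the KLS list and their Cre driver that of the LT-HSC list, although their titles give neither.

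LT-HSCs are the rare cells at the top of blood formation that self-renew and are mostly quiescent, whereas most KLS cells are multipotent progenitors that divide and begin to open the programmes of myeloid and lymphoid cells. Stem cell identity depends on transcription factors of the GATA, TAL, HOX, MEIS and ETS families, and the entry to myeloid and lymphoid fates on PU.1, C/EBP, IRF and RUNX proteins. DAXX is a histone chaperone that with ATRX places the variant histone H3.3 in silent chromatin.

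Regions found in the Daxx-KO LT-HSC list only included regions near genes of stem cells and megakaryocytes that carry the GATA motif. Those found in the Daxx-KO KLS list only included regions near lymphoid, myeloid and interferon response genes with RUNX, Pu.1 or IRF motifs. Interferon genes as a list did not lean to KLS cells, as given below. The sequences below show 3 LT-HSC regions and 4 KLS regions with such motifs, chosen after their values were seen. Each is 201 bp around the summit, plus strand, of the mm10 (GRCm38) mouse genome as given by RefSeq, and capitals mark a match to the motif that is named. The first 3 are in the LT-HSC list only, with the GATA motif (AGATAA or TTATCT) in capitals.
Lmo2, chr2:103893857-103894057: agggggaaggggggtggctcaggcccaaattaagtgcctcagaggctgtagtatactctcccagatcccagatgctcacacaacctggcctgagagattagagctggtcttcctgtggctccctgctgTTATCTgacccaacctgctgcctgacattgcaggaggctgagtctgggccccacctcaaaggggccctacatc
Gata1, chrX:7971376-7971576: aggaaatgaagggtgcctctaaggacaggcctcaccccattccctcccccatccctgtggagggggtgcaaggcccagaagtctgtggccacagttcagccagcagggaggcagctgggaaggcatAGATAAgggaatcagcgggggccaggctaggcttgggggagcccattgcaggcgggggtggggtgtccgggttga
Vwf, chr6:125583794-125583994: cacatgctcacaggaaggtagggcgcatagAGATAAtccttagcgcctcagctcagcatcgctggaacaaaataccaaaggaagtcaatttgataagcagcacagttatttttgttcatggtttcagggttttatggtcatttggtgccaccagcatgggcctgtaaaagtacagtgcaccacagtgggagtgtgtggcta
The next 4 are in the KLS list only, with the RUNX motif (TGTGGTT or AACCACA) in capitals for Il7r and Ccr9, the Pu.1 motif (GAGGAAGT or ACTTCCTC) for Itgam and the IRF motif (GAAA, any 2 bases, GAAA) for Rsad2.
Il7r, chr15:9529778-9529978: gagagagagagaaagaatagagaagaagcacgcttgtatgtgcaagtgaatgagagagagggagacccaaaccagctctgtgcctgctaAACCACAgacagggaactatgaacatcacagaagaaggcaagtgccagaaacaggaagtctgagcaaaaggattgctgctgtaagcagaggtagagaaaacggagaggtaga
Ccr9, chr9:123754489-123754689: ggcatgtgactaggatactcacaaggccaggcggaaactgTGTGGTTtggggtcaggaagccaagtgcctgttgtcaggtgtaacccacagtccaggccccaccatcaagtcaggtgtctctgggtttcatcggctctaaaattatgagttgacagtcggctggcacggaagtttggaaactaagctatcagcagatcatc
Itgam, chr7:128089244-128089444: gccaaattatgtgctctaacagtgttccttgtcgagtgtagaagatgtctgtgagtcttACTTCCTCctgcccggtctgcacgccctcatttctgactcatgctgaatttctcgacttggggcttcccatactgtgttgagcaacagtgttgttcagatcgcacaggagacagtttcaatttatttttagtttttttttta
Rsad2, chr12:26439451-26439651: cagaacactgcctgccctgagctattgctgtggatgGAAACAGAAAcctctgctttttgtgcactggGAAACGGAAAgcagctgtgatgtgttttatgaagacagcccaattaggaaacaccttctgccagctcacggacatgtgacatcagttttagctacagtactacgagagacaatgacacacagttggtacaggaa
The Lmo2 region is intergenic, 63355 bp from the nearest start of Lmo2, a bridging factor of the TAL1 and GATA complex, and the Gata1 region is in an intron of Gata1, the erythroid and megakaryocyte factor. The Vwf region is in an intron of the gene of von Willebrand factor, which marks platelet-biased stem cells. The Il7r region covers the start of the interleukin-7 receptor gene of lymphoid progenitors. The Ccr9 region is in an intron of the gene of a thymus homing receptor. The Itgam region is in an intron of the gene of CD11b, a surface protein of myeloid cells, and the Rsad2 region lies 16394 bp from the start of Rsad2, an antiviral interferon response gene. The Rsad2 region was in both Daxx-WT lists of the same times and in all 6 lists without a time label. In the Daxx-WT lists of the same times, the Lmo2 and Gata1 regions were in LT-HSCs alone and the Itgam region in KLS alone. The Vwf, Il7r and Ccr9 regions were in neither.

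Before the lists were compared, the labels were set against marker genes, where a gene counted as covered when a region lay within 1000 bp of a transcription start. Of 7 LT-HSC markers, 6 were covered in the Daxx-KO LT-HSC list and 5 in the Daxx-KO KLS list. Slamf1, which encodes the sorting antigen CD150, was covered in the LT-HSC list and not in the KLS list, and Ly6a, which encodes Sca-1, was covered in neither. Flt3 and Cd48, whose proteins the LT-HSC gate excludes, were covered in both lists. Among 12 markers of mature blood lineages, 3 and 4 were covered in the LT-HSC and KLS lists. Of 5 erythroid markers, 2 were covered in each list, whereas the starts of Slc4a1, Hbb-bt and Alas2 were in neither. Of 5 stromal and endothelial markers, 3 were covered in each list. The promoter region of Daxx itself (gene at 17:33909414-33915590, mm10) was in all 4 lists, but reached less far into the gene in the Daxx-KO lists. It ended at base 33910009 in Daxx-KO LT-HSCs and at base 33909963 in Daxx-KO KLS cells, and at bases 33910308 and 33910299 in the Daxx-WT lists of the same populations. The header of the authors' site table of each population gave a mean of 4.21 to 9.59 reads per window for the Daxx-KO LT-HSC libraries and 4.54 to 8.13 for the Daxx-KO KLS libraries. The depth of the pooled lists is unknown.

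Of the Daxx-KO LT-HSC regions, 9595 of 44326 (21.6%) had no overlap of 1 bp or more with a KLS region. In the reverse direction, 9711 of 44694 KLS regions (21.7%) were absent from the LT-HSC list. In the Daxx-WT pair the shares were 26% for LT-HSCs (9607 regions) and 17.2% for KLS cells (5721 regions). Regions in one list only were mostly distal, that is more than 1000 bp from a start of a protein-coding gene. Of distal regions, 8173 of 29884 in LT-HSCs (27.3%) and 9174 of 31001 in KLS cells (29.6%) were in one list only. Of promoter regions, 1422 of 14442 in LT-HSCs (9.85%) and 537 of 13693 in KLS cells (3.92%) were. Promoters thus made up 14.8% of the regions of the LT-HSC list only and 5.53% of those of the KLS list only, against 37.5% of LT-HSC regions shared with KLS. In the Daxx-WT pair these shares were 17.3% and 7.20%. The regions of the LT-HSC list only also had a higher median GC content, 50.2% against 46.4% (Daxx-WT, 50.9% and 46.9%). Their median width was 634 bp against 675 bp in KLS, and shared regions were wider, at 1032 bp in the LT-HSC list.

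Regions in one list only were mostly weak. Each list was ranked by the authors' fold enrichment over background, with 100 as the highest percentile, since the values themselves cannot be compared between lists. The median rank was 19.9 for the regions of the LT-HSC list only and 27.5 for those of the KLS list only. In the lowest decile of rank, 59.3% of LT-HSC regions and 40.6% of KLS regions were in one list only, and in the highest decile 0.812% and 1.32%. In the top 50% of each list by rank, 1054 LT-HSC regions (4.76%) and 2132 KLS regions (9.54%) were absent from the whole of the other list. Weak signal near the calling threshold and absence of signal cannot be told apart from the lists.

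**Figure D1:**
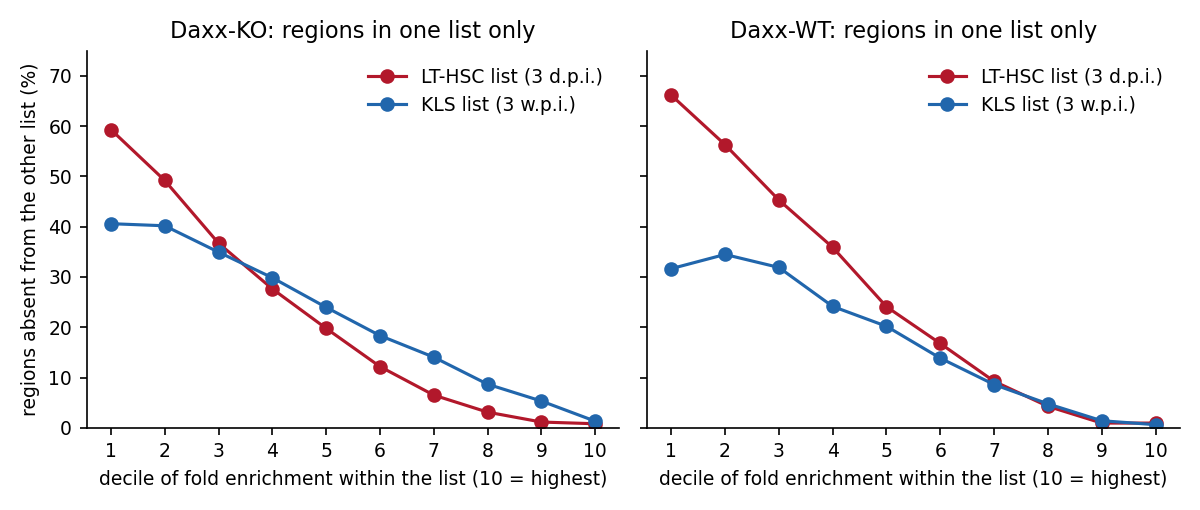
Share of regions absent from the other list (y axis, %) by decile of fold enrichment within each list (x axis, 10 is the highest), for Daxx-KO (left) and Daxx-WT (right) LT-HSCs and KLS cells. In Daxx-KO the share fell from 59.3% to 0.812% in LT-HSCs and from 40.6% to 1.32% in KLS cells.

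The 6 lists without a time label, made from other libraries, were searched for the regions of each list only. Of the regions of the LT-HSC list only, 87.6% lay in the Daxx-KO LT-HSC list without a time label, against 75.9% of those of the KLS list only. The order was the opposite for Daxx-KO progenitors. In the Daxx-KO CMP list lay 43.1% of the regions of the LT-HSC list only and 51.5% of those of the KLS list only, and in the Daxx-KO GMP list 33.1% and 39.3%. The Daxx-WT lists without a time label had 81.7% and 69.5% in LT-HSCs and 46.5% and 52.9% in GMPs, in the same order, and in Daxx-WT CMPs the shares were nearly equal, 64.0% and 63.1%. The CMP order did not hold among regions in the top 50% by rank, of which 71.1% and 70.8% lay in the Daxx-KO CMP list and 84.4% and 75.5% in the Daxx-WT CMP list. Of the regions of the LT-HSC list only, 40.5% were in the Daxx-KO LT-HSC list without a time label and in neither the CMP nor the GMP list, against 32.6% for KLS. Regions in the CMP or GMP list and not in the LT-HSC list made up 4.95% of the LT-HSC list only and 14.3% of the KLS list only. Shared regions were in these lists far more often, 99.2% in Daxx-KO LT-HSCs and 80.3% in Daxx-KO GMPs.

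**Figure D2:**
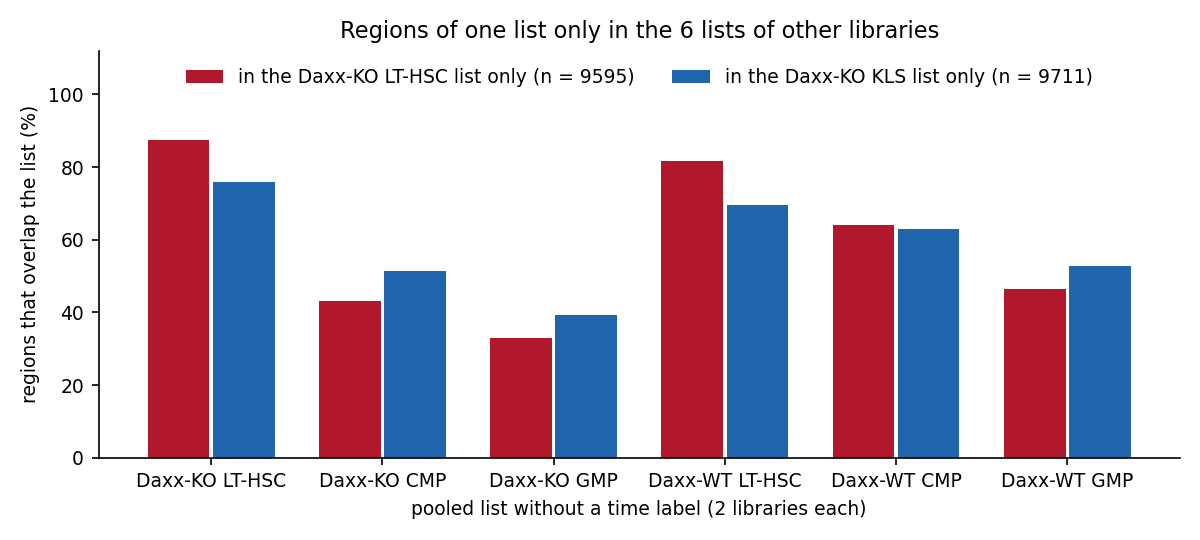
Share of the regions of the Daxx-KO LT-HSC list only (red, 9595 regions) and of the Daxx-KO KLS list only (blue, 9711 regions) that overlap each of the 6 pooled lists without a time label (y axis, %). Red is above blue for both LT-HSC lists and below it for both GMP lists.

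The Daxx-WT libraries of the same times showed how much of the difference was held in both genotypes. Of the regions of the Daxx-KO LT-HSC list only, 40.6% were in the Daxx-WT LT-HSC list at 3 d.p.i. and 15.3% in the Daxx-WT KLS list. Of those of the Daxx-KO KLS list only, 27.0% were in the Daxx-WT KLS list and 15.8% in the Daxx-WT LT-HSC list. The same direction in Daxx-WT, present in the matching list and absent from the other, was seen for 2952 LT-HSC regions (30.8%) and 1898 KLS regions (19.5%). In neither Daxx-WT list were 5177 LT-HSC regions (54.0%) and 6280 KLS regions (64.7%). These were weaker, with a median rank of 15.2 in LT-HSCs and 23.1 in KLS cells, and the Daxx-WT lists are shorter and rest on fewer libraries.

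Motifs of transcription factors differed between the distal regions of each list only. Each motif was searched on both strands within 100 bp of the summit, and in windows of the same length 1000 bp away. The GATA motif AGATAA was in 16.5% of the 8173 distal regions of the LT-HSC list only (95% Wilson interval over regions, 15.7 to 17.3) and in 8.02% of the 9174 of the KLS list only (7.48 to 8.596). The windows 1000 bp away held it in 9.89% and 11.9%. In the top 50% by rank, the GATA shares were 22.8% and 7.03%. In the Daxx-WT pair the GATA shares were close to each other, 10.1% in the LT-HSC list only and 9.30% in the KLS list only. These intervals cover counting error over regions alone, not the spread between animals.

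Of the distal regions of the LT-HSC list only, 81.1% were in the Daxx-WT LT-HSC list without a time label. Absence from the Daxx-WT lists at 3 d.p.i. and 3 w.p.i. is therefore not absence in Daxx-WT cells. Split by presence in the Daxx-WT lists of these times, the GATA share was higher in LT-HSC regions found in neither. It was 19.4% in the 4580 distal regions of the LT-HSC list only that were in neither Daxx-WT list (18.2 to 20.5), and 12.8% in the 3129 that were also in the Daxx-WT LT-HSC list at 3 d.p.i. (11.7 to 14.1). For KLS the same shares were 8.07% in neither Daxx-WT list and 8.40% in the Daxx-WT KLS list. GATA factors often bind together with TAL1 where an E-box end lies at a fixed distance from the GATA site. This arrangement was searched after the GATA shares were seen, as CTG followed after 8 or 9 bases by GATAA, on both strands. It was in 5.30% of the distal regions of the Daxx-KO LT-HSC list only (433 regions) and in 0.992% of those of the KLS list only (91 regions), against 1.126% and 1.34% in windows 1000 bp away. Shared distal regions of the LT-HSC list held it in 2.65%. In the Daxx-WT pair it was in 2.83% and 1.58%.

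Whether markers of cell types that use GATA factors moved along was read from the same lists. For 10 megakaryocyte genes, taken after the GATA shares were seen, 8 starts were covered in the Daxx-KO LT-HSC list and 6 in the KLS list (Daxx-WT, 7 and 5). Of their 30 LT-HSC regions 9 were in the LT-HSC list only, and of their 23 KLS regions 2 were in the KLS list only. Over all genes these shares were 21.3% in LT-HSCs and 19.8% in KLS cells. The megakaryocyte genes were above the first and below the second. For 9 mast cell and basophil genes 2 starts were covered in each Daxx-KO list, Cpa3 and Hdc (Daxx-WT, 0 in LT-HSCs and 2 in KLS cells). Of their regions, 6 of 13 were in the LT-HSC list only and 5 of 12 in the KLS list only. Both were above the shares over all genes. The starts of the defining markers Fcer1a, Ms4a2, Cma1 and Mcpt8 were in none of the lists. Erythroid markers were covered equally, 2 of 5 in each. The part of megakaryocyte-primed cells, or of mast cells and basophils, in the GATA share was not tested.

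RUNX, Pu.1, IRF and C/EBP motifs had the opposite order, in both genotypes. The RUNX motif TGTGGTT was in 8.96% of the distal regions of the Daxx-KO LT-HSC list only and in 18.0% of those of the KLS list only (Daxx-WT, 8.40% and 17.4%). The Pu.1 motif GAGGAAGT was in 5.49% and 12% (Daxx-WT, 5.79% and 10.9%). The IRF motif, bound by interferon regulatory factors, was in 2.35% and 6.51% (Daxx-WT, 2.57% and 6.42%). The C/EBP motif TTGCNNAA was in 7.71% and 11.1% (Daxx-WT, 7.40% and 11.3%). RUNX and Pu.1 were also higher than 1000 bp away in KLS, where the windows held them in 5.12% and 1.25%. Among KLS regions that also lay in a Daxx-KO CMP or GMP list, 15.0% had the Pu.1 motif, against 7.13% of those found with Daxx-KO LT-HSCs without a time label and in no CMP or GMP list. The AP-1 motif TGANTCA was in 8.58% and 9.81%, and in Daxx-WT in the reverse order, 10.5% and 9.32%. The CTCF motif of the insulator protein (CCAC, any base, AGG, any base, GGCA) was in 2.63% and 1.10% (Daxx-WT, 3.398% and 1.94%).

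**Figure D3:**
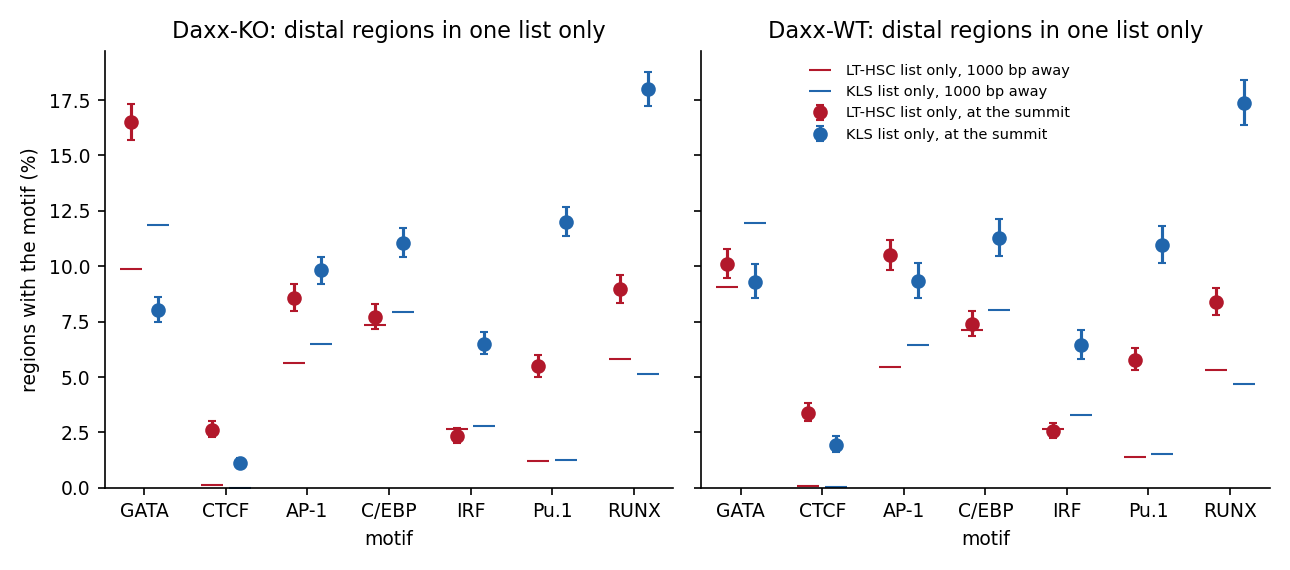
Share of distal regions of one list only with each of 7 motifs (y axis, %) for Daxx-KO (left) and Daxx-WT (right). Points are the windows at the summit with 95% Wilson intervals over regions, short bars the windows 1000 bp away, red LT-HSC and blue KLS. GATA was at 16.5% against 8.02% in the left plot, with 10.1% against 9.30% in the right, and RUNX was higher in KLS in both.

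Each region was given to the protein-coding gene with the nearest transcription start within 100 kb. Of 21911 genes, 4191 (19.1%) had more regions in the LT-HSC list only than in the KLS list only and 3568 (16.3%) had fewer. Over all genes, 21.3% of LT-HSC regions and 19.8% of KLS regions given to a gene were in one list only, which is 8748 and 8025 regions. In the Daxx-WT pair the counts over all genes were 8775 for LT-HSCs and 4783 for KLS cells, so that gene lists there start from more LT-HSC regions.

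Transcription factors of haematopoietic stem cells leaned towards LT-HSCs. Of 20 such genes, 13 had more regions in the LT-HSC list only and 2 had more in the KLS list only, Nfix and Mecom. They had 52 regions in the LT-HSC list only (37.1% of their LT-HSC regions) and 26 in the KLS list only (22.2%). In the Daxx-WT pair the counts were 35 and 15. Etv6, an ETS repressor that stem cells need to persist in adult marrow, had 8 regions in the LT-HSC list only and 0 in the KLS list only, the largest difference of any gene towards LT-HSCs (Daxx-WT, 2 and 0). These regions were of low rank, from 1.70 to 30.1, and all 8 were in the Daxx-KO LT-HSC list without a time label. Hlf and Meis1, which both sustain stem cell self-renewal, each had 4 against 0 (Daxx-WT, 3 and 0 for Hlf, 2 and 1 for Meis1). Tal1 and Mllt3 each had 2 against 0, and Gata2 had 3 against 1. Mecom, which encodes the self-renewal factor EVI1, had 6 against 7 in Daxx-KO and 9 against 2 in Daxx-WT. The strongest Mecom region of the KLS list only (3:30329888-30330919, intron, rank 70.5) carried Pu.1 and RUNX motifs. The strongest of its LT-HSC list only (3:30104698-30105824, intron, rank 45.6) carried the Pu.1 motif.

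Surface genes of LT-HSCs leaned the same way. Of 16, 9 had more regions in the LT-HSC list only and 2 had more in the KLS list only, Cd82 and Cxcr4, and the counts of regions were 19 (27.5%) and 9 (15.3%), with 21 and 8 in Daxx-WT. Starts covered in LT-HSCs alone were found for 3.95% of all genes (866) and for 4 of these 16. Slamf1, the gene of CD150, had such a region (1:171766941-171768073, rank 13.1). Tek, the gene of the angiopoietin receptor TIE2 that keeps stem cells in their niche, had one at rank 46.9 (4:94738815-94739995), and Tek was also covered in LT-HSCs alone in Daxx-WT. The start of Vwf was covered at rank 34.04 (6:125552435-125553259) and that of Thy1 at rank 18.9. Thy1 was covered in LT-HSCs alone in Daxx-WT as well, whereas Vwf and Slamf1 were covered in neither Daxx-WT list. Cd9, a tetraspanin on stem cells and platelets, had 4 regions against 0 (Daxx-WT, 1 against 3). Among the 866 genes, 365 were covered in LT-HSCs alone in Daxx-WT too.

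Genes of granulocytes and monocytes leaned towards KLS cells in Daxx-KO. Of 26, 12 had more regions in the KLS list only and 5 had more in the LT-HSC list only. The 26 had 25 regions (26.6% of their KLS regions) against 12 (15.2%). In the Daxx-WT pair they had 14 regions in each list only, where all genes had 4783 in KLS and 8775 in LT-HSCs. That equal split also held a larger part of KLS regions than the split over all genes. In the Daxx-KO lists, starts covered in KLS cells alone were found for 1.31% of all genes (286) and for 4 of these 26. These were Mpo (myeloperoxidase) and Prtn3 (proteinase 3), both granule enzymes, Cebpe, a factor of late granulocyte maturation, and Ly6c2, a monocyte antigen. In Daxx-WT, Mpo was covered in KLS alone too, Cebpe in LT-HSCs alone, and Prtn3 and Ly6c2 in neither list. The Mpo region (11:87793194-87794163, rank 6.28) held GATA, Pu.1 and RUNX motifs. It lay in all 4 CMP and GMP lists and in neither LT-HSC list without a time label. The Ly6c2 region (15:75111677-75112222, rank 22.9) had the Pu.1 motif and the same presence. Mpo also had 2 regions in the LT-HSC list only, at 2913 and 5701 bp from its start. Prtn3 had no region in the KLS list only, since its KLS region overlapped an LT-HSC region that lay 1016 bp from the start. Klf4, a monocyte factor, had 4 regions against 0, and Irf8, which directs monocytes and dendritic cells, had 4 against 1. In Daxx-WT, Klf4 had 3 against 2 and Irf8 had the reverse order, 1 against 3. Spi1, which encodes Pu.1, had 1 weak region in the KLS list only (rank 1.48). Its promoter region ranked 63.0 in LT-HSCs and 52.7 in KLS cells, and an intronic region at 2:91096223-91098082 ranked 55.4 and 74.2.

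Genes of multipotent and lymphoid progenitors were divided. Of 24, 8 had more regions in the KLS list only and 4 had more in the LT-HSC list only. These lists held 21 (25%) and 14 (17.9%) of their regions. The Daxx-WT pair had 6 against 19, in the order of all genes there, 4783 against 8775. Il7r had 2 against 0, both with the RUNX motif, at its start (15:9529627-9530331, rank 69.0) and 44727 bp away. The starts of Il7r and of Rag1, the recombinase of lymphoid cells, were covered in Daxx-KO KLS cells and in none of the other 3 lists. Rag1 itself had 0 regions in both Daxx-KO lists, as the region at its start was given to another gene. Tcf7, a T cell factor, had 4 against 0 and Ccr9 had 4 against 1. Dntt, the terminal transferase of early lymphoid cells, had 2 against 0. Gata3, a factor of T cells that is also expressed in stem cells, had 0 against 4 of the LT-HSC list only, all of rank 2.13 or lower, and Bcl11b had 0 against 2.

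Erythroid and megakaryocyte genes had 10 regions in the LT-HSC list only (16.9%) and 8 in the KLS list only (14.5%), with 7 and 4 of 20 genes leaning to each, and 17 against 6 regions in Daxx-WT. Gp1bb, a platelet glycoprotein, was covered at its start in LT-HSCs alone in both genotypes. Gata1 had 1 region in the LT-HSC list only, that shown above. Of 16 genes of quiescence and CDK inhibitors, 9 had more regions in the LT-HSC list only and 5 in the KLS list only. Their 20 against 14 regions (23.3% and 17.3%, Daxx-WT 18 against 7) were close to the shares over all genes. Cdkn1c, the inhibitor p57 that holds stem cells in quiescence, had 2 against 0. Tgfbr2, a receptor of TGF-β, had 1 against 4. AP-1 and immediate early genes had 12 against 14 regions (15.2% and 17.5%), both below the shares over all genes. In Daxx-WT they had 22 against 11, in the order of all genes there, 8775 against 4783. Ier2 had 3 against 0. Jun and Fosl2 each had 0 against 2. Cell cycle genes had 13 against 12 regions (18.1% and 16.9%, Daxx-WT 14 and 8), below the shares over all genes. Of these genes, Mki67 had 5 against 0, at 5189 to 92713 bp from its start. Interferon and nucleic acid sensing genes had 9 against 10 regions (15.3% and 16.1%, Daxx-WT 10 and 9), also below the shares over all genes. Ifi44 and Ifih1 each had 0 against 2, and Isg15 was covered at its start in KLS cells alone, at rank 0.345. Genes of H3.3 chaperones and silencing had 5 against 5 regions (11.6% in each list, Daxx-WT 6 and 1), below the shares over all genes. All 18 starts were covered in both lists. Cabin1, a subunit of the HIRA complex, had 2 against 0 and H3f3a had 0 against 2.

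**Figure D4:**
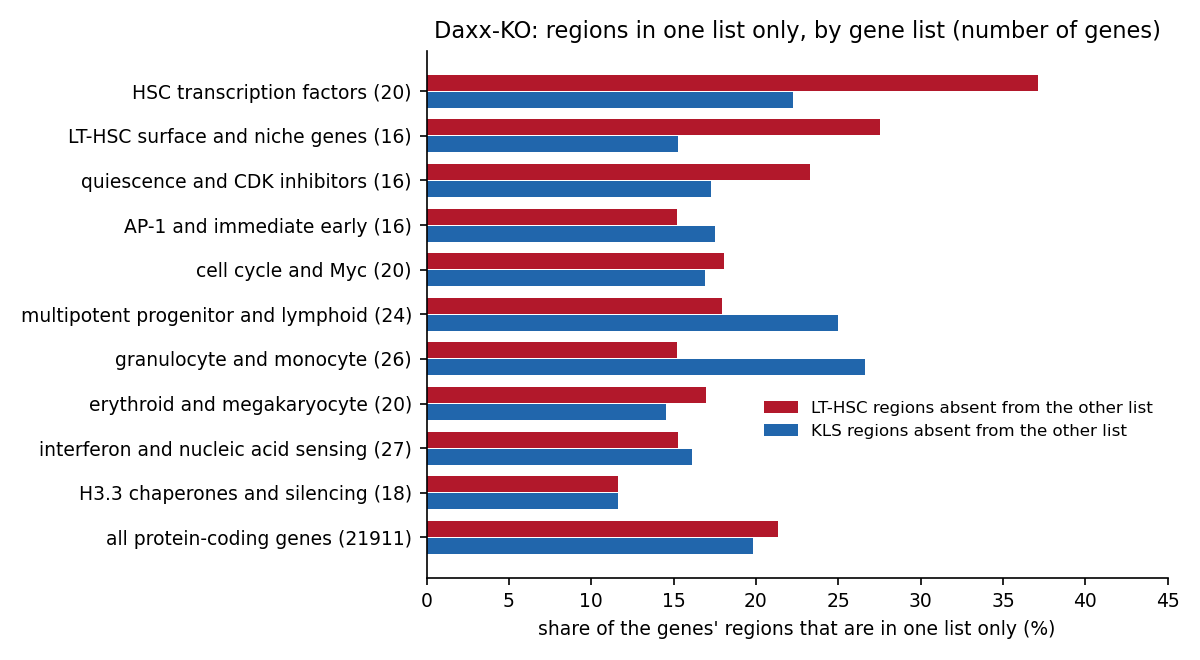
Share of the regions of each gene list that are in one list only (x axis, %), for Daxx-KO LT-HSC regions (red) and Daxx-KO KLS regions (blue), with the number of genes in brackets and all protein-coding genes at the bottom. HSC transcription factors were at 37.1% against 22.2%, granulocyte and monocyte genes at 15.2% against 26.6% and all genes at 21.3% against 19.8%.

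Outside the gene lists, the genes with the largest differences towards LT-HSCs after Etv6 were Adgrl1, Chd7, Greb1 and Svil with 7 regions against 0. Calcoco1, Ezh2, Nfatc2 and Rnf144b had 6 against 0 and Gse1 had 9 against 3. Chd7, a chromatin remodeller, was also covered at its start in LT-HSCs alone in both genotypes, and 6 of its 7 regions were in the Daxx-WT LT-HSC list. Ezh2 encodes the methyltransferase of Polycomb complex 2, and 4 of its 6 regions were in the Daxx-WT LT-HSC list. Towards KLS, Pde4d, a cAMP phosphodiesterase, had 14 regions against 4, although in Daxx-WT it had 3 against 10. Arid5b, a factor of lymphoid and metabolic genes, had 9 against 0, Dscam 8 against 0, and Cmah, Epb41l2 and Fbxo11 7 against 0. Akap2 and Map3k20 had 6 against 0, and Alpk2 and St8sia4 7 against 1. Of the 14 Pde4d regions, 13 lay in the Daxx-KO LT-HSC list without a time label.

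The strongest regions of each list only were taken from those with no region of the other list within 1000 bp. The 10 highest LT-HSC regions had fold enrichments from 21.05 to 33.4, widths of 284 to 791 bp and none of the 7 motifs. All 10 were also in the Daxx-WT LT-HSC list at 3 d.p.i. and in none of the Daxx-WT KLS list, and in 4 or more of the 6 lists without a time label. Soft-masked (repeat) sequence made up from 30.6% to 100% of them. The highest lay at 8:83756683-83757080, 15357 bp from Adgre5, and that nearest to a start at 2:92093502-92093881, 365 bp from a start of Phf21a. The 10 highest KLS regions had fold enrichments from 12.9 to 34.6, with soft-masked shares from 1.88% to 85.4%, and 3 of them held the RUNX motif while the other 7 held none of the motifs. They included an intronic region of Dock2, which encodes a factor of leukocyte migration (11:34681590-34682629), and a region 42970 bp from Cd28, a co-stimulatory receptor of T cells (1:60702249-60703388). Of the 10, 9 were in the Daxx-WT KLS list. The Cd28 region and those nearest to Tnc and Epha7 were also in the Daxx-WT LT-HSC list at 3 d.p.i., and the rest were not.

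Regions present in both lists were ranked alike. Among 33831 pairs of single regions that overlap each other, Spearman's correlation of the ranks was 0.810 across regions, 0.914 for promoters and 0.699 for distal regions. Regions are not independent samples, so that no p is given. The rank was higher in LT-HSCs by 25 percentiles or more for 2686 pairs and in KLS for 2361. Of these, 884 and 152 were promoters. The motifs in distal pairs followed those of regions in one list only. GATA was in 18.8% of the 1802 pairs that ranked higher in LT-HSCs and in 8.74% of the 2209 that ranked higher in KLS, RUNX in 10.1% and 20.4%, Pu.1 in 5.60% and 15.2%, and CTCF in 3.22% and 0.634%. The largest shifts were at 16:98106717-98107722, 24267 bp from A630089N07Rik (rank 99.9 in LT-HSCs and 10.9 in KLS), and, towards KLS, at the start of BC031181 (0 and 94.0) and 80405 bp from F13a1, a factor of coagulation made by monocytes and platelets (10.99 and 95.8).

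Values of single libraries exist only at sites that the authors selected for a difference between Daxx-KO and Daxx-WT within a population, so that separation of the genotypes there was fixed by the selection and is described without a test. Such a site of the LT-HSC table overlapped 1095 regions of the LT-HSC list only (11.4%) and 5.79% of shared LT-HSC regions. All 3 Daxx-KO libraries were above both Daxx-WT libraries at 922 (9.61%) and below them at 172 (1.79%), against 3.84% and 1.84% of shared regions. A site of the KLS table overlapped 1098 regions of the KLS list only (11.3%) and 5.84% of shared ones. All Daxx-KO were above all Daxx-WT at 959 (9.88%) and below at 132 (1.36%), against 3.21% and 2.51% of shared regions. Regions of one list only were called in these same Daxx-KO libraries and were mostly weak, a choice that also favours Daxx-KO above Daxx-WT. Tables were scaled separately and are not compared with each other.

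In the LT-HSC table, the Vwf intron shown above had 180, 142 and 154 scaled reads in Daxx-KO, against 90.2 and 67.5 in Daxx-WT. The Gata1 intron had 106, 109 and 72.8 against 59.7 and 46.9. The region given to Itga2b, the gene of the platelet integrin CD41, lies in an exon of Gpatch8, 8668 bp from the start of Itga2b. It had 96.4, 97.4 and 109 against 54.1 and 36.6. At all 3 the Daxx-KO values were above the Daxx-WT values with no overlap. Not all regions of the LT-HSC list only went this way. A Meis1 intron (11:18963017-18964120) had 122, 137 and 145 against 91.3 and 76.9, while an intergenic region of Meis1 (11:19112182-19112606) had 58.7, 59.2 and 63.3 against 90.2 and 103. An intron of Kit, the stem cell factor receptor, had 98.2, 75.4 and 88.7 against 146 and 136. In the KLS table, the Ccr9 intron shown above had 126, 167 and 147 scaled reads, against 62.0 and 71.1 in Daxx-WT. The region 6228 bp from Dntt had 173, 307 and 196 against 121 and 132, and the distal Il7r region 60.1, 73.5 and 49.9 against 31.0 and 31.0. At Irf8 (8:120724995-120726488) 1 Daxx-KO library stood well above the others, with 65.7, 168 and 78.1 against 32.8 and 56.2. Some regions of the LT-HSC list only had fewer reads in Daxx-KO than in Daxx-WT KLS cells, as in an Hlf intron (11:90381862-90382524) with 55.7, 49.0 and 50.8 against 89.4 and 81.4, and in the Lmo2 region shown above with 27.8, 33.2 and 37.6 against 66.6 and 57.3.

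**Figure D5:**
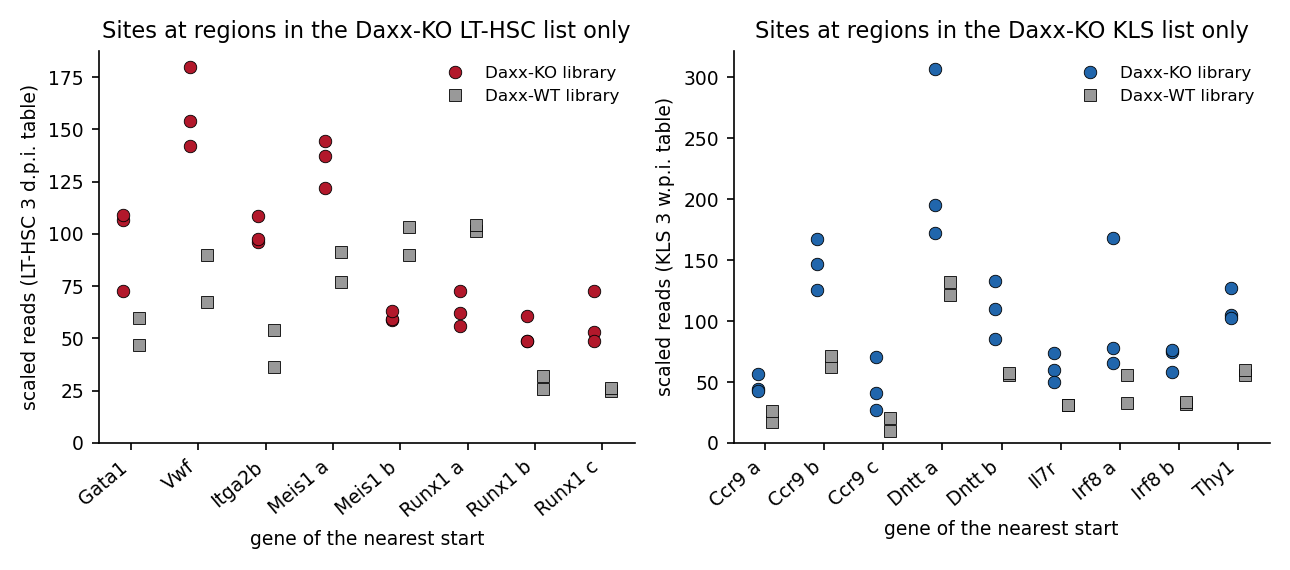
Scaled reads of each library (y axis) at the authors' sites that overlap regions of the Daxx-KO LT-HSC list only (left, LT-HSC 3 d.p.i. table) and of the Daxx-KO KLS list only (right, KLS 3 w.p.i. table), for 10 genes chosen after their values were seen. Circles are Daxx-KO and squares Daxx-WT libraries, and letters part several sites of a gene. The Daxx-KO values are above the Daxx-WT values at each site shown except the Meis1 site with 58.7 to 63.3 and 1 Runx1 site with 55.9 to 72.5 scaled reads in Daxx-KO.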

How the data were processed

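ATAC-seq libraries were tagmented from sorted cells, and the submitters' processing notes name CASAVA 1.8.4, cutadapt 1.13, STAR 2.5.3, bedtools and mm10. Settings of the peak caller are not given in the sources used here. The authors deposited 1 pooled conservative peak list per group, with a score, a fold enrichment (ratio over background) and −log10 p and −log10 q values per peak. Only the fold enrichment was used as the rank, with the −log10 q value as an alternative. Repeated intervals (90191 rows in LT-HSCs, 79299 in KLS) were counted once with their highest row. The authors' site tables, made with diffReps 1.55.6, hold other columns of scaled reads per library, which were used, and fold changes and p-values, which were not. The header of the LT-HSC table names libraries by numbers that are not the replicate numbers of the titles, so its values are given without one. Soft-masking and sequence came from RefSeq GRCm38.p6 and genes from GENCODE M21, with Python 3.11.15, pandas 2.3.3, SciPy 1.17.1 and pysam 0.24.0. Code was tested on simulated intervals and planted motifs.

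The members and gene lists were chosen with earlier results of these data known. Named were the 10 highest regions and 10 genes of largest difference per direction, 4 genes per gene list and those with 2 or more regions in one list only, and the 5 largest rank shifts per direction. Lmo2, Gata1, Itgam, Rsad2, Itga2b, Kit, Runx1, Prtn3 and others named for a covered start, and the megakaryocyte and mast cell genes, were chosen after their values were seen. Of 28 interferon genes, Mx2 was not found under that symbol. The labels give both Daxx-WT libraries as Daxx +/+, whereas a legend in the study also names Daxx +/F among the early controls. Groups follow the labels. Labelled DKO libraries were not used here. Results of some genes that the rule would name are not reported here.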

Additional observations from a re-analysis of the deposited data

How the results depend on the processing

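No paired analysis was possible because the comparison rests on pooled lists that carry no replicate numbers and on no test, and for the same reason no library could be left out. Site values were given per library without a group mean, so leaving out a library was not run there. Of 52 alternative values of 15 results, 20 moved. Counts were taken as moved beyond 1.5 times, and differences beyond the 95% counting interval over regions. No difference in shares or ranks changed sign, but the order of the counts in one list only, 9595 in LT-HSCs and 9711 in KLS, did: with both lists at the shorter length they were 9730 and 9548. In the top 50% by rank, 1054 LT-HSC and 2132 KLS regions were in one list only, and counting each row of the file gave 15980 for LT-HSCs and 13681 for KLS, also in the reverse order. The promoter share of LT-HSC minus KLS, 9.29 percentage points, was 10.5 with promoters to 2500 bp, 10.4 with starts of all genes and 5.73 in the top 50% by rank. Motif differences in the top 50% by rank were 15.8 points for GATA, -9.88 for Pu.1, -12.7 for RUNX, -4.39 for C/EBP, -5.14 for IRF, -2.31 for AP-1 and 2.04 for CTCF. Within 50 bp of the summit they were 6.54 for GATA, -5.41 for Pu.1, -6.76 for RUNX, -2.23 for C/EBP, -3.20 for IRF and, within the interval, -0.527 for AP-1 against -1.23, as shorter windows hold fewer matches. The median rank difference of shared regions, 1.71 percentiles, was 0.359 by −log10 q and 4.67 with the lowest row of a repeated interval, so its size depends on the ranking, and the cause was not tested. Depth of the pooled lists is unknown, so absence from a list is no measure of absent signal.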
